A study of Sus scrofa and Rattus norvegicus with 6 samples.

Results

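The ATP8 and ATP6 transcript models of pig and of rat, 4 of the 102946 models in the deposited tables, were followed across every library of the series (62843 models in pig and 40103 in rat). They were taken by their Ensembl identifiers and kept because their lengths lay within 10 bases of the expected coding lengths. Those expected lengths were taken from the pig RefSeq annotation for both species. In both species the ATP8 model had the length of 68 codons and the ATP6 model that of 227 codons, stop codons included. The identifiers are ENSSSCT00000019675.1 (pig ATP8), ENSSSCT00000019676.1 (pig ATP6), ENSRNOT00000046201.3 (rat ATP8) and ENSRNOT00000046108.3 (rat ATP6). The members were chosen by their high TPM in these libraries, so their levels and the comparison of ATP8 with ATP6 within a library are given as a description with no test. The contrast of pig with rat, which did not itself choose the members, is tested further on. It uses the same libraries, so the choice by high TPM may bear on it.

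The libraries came from cells taken around the central canal of the spinal cord of adult wild-type pigs and rats. The cells were grown as adherent cultures on coated plates without serum, in DMEM/F12 with N2/B27, heparin, EGF and FGF2, and received no treatment. There were 3 pig and 3 rat libraries, with 28410384 to 41189880 estimated counts each. Separate animals or cultures are not named for the replicates, so SDs and p-values cover the scatter among these libraries alone, and that scatter may be technical. Cell type markers and the nuclear-encoded ATP synthase subunits were not analysed here, because the tables used do not pair the transcript identifiers with gene names. The names of the members rest on the identifiers and on the match of length.

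ATP8 and ATP6 are encoded in mitochondrial DNA and are both subunits of the membrane part of ATP synthase, the enzyme that makes ATP from the proton gradient across the inner mitochondrial membrane. ATP6 forms part of the path by which protons cross the membrane, and ATP8 is a small membrane subunit beside it. Mitochondrial genes are transcribed as long precursors that are cut mostly at transfer RNAs, and no transfer RNA separates ATP8 from ATP6. Their reading frames overlap and stay together on a bicistronic messenger RNA, so a molecule that carries the ATP8 frame also carries the ATP6 frame.

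The pig RefSeq annotation (assembly Sscrofa11.1) lists ATP8 and ATP6 as neighbours among the 13 protein-coding genes of the mitochondrial chromosome. Their lengths there equal those of the pig models, which the filter on length already required to within 10 bases. The genes overlap by 43 bases and span 842 bases together. ATP8 has 161 bases of its own and ATP6 has 638. COX3, which encodes a cytochrome c oxidase subunit, follows directly and shares 1 base with ATP6. A read of 150 bases is longer than the overlap, so no whole read lies in both models, and a read that covers bases on either side of the overlap lies whole in neither. How reads that run past the end of a model were treated is not given in the sources used here, and the division of reads between these overlapping genes is uncertain to that extent.

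ATP8 and ATP6 stood in opposite order in the 2 deposited units. TPM, which divides the estimated count by an effective length and scales every library to the same total, placed ATP8 about 4-fold above ATP6 in every library. Estimated counts, the reads that Salmon assigned to each model, placed ATP6 far above ATP8 in every library.

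ATP8 stood at 62668, 74746 and 69225 TPM in pig libraries 1, 2 and 3, and at 82331, 64138 and 89015 TPM in rat libraries 1, 2 and 3. It was the transcript of highest TPM in each of the 6 libraries, and the ranges of pig and rat overlapped. ATP6 stood at 15850, 18421 and 16782 TPM in the pig libraries and at 18737, 16456 and 18478 TPM in the rat libraries, again with overlapping ranges. ATP6 ranked 3 or 4 by TPM in pig and 2 or 3 in rat. The ATP8 to ATP6 ratio of TPM was 3.95, 4.06 and 4.12 in pig (4.05 ± 0.0862, SD, n = 3) and 4.39, 3.90 and 4.82 in rat (4.37 ± 0.460, SD, n = 3). ATP8 was thus above ATP6 in all 6 libraries by this unit, and rat library 2 lay below every pig library while rat libraries 1 and 3 lay above.

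Estimated counts of ATP8 were 15707, 18010 and 13516 in the pig libraries and 28380, 20688 and 22792 in the rat libraries. Estimated counts of ATP6 were 176578, 199163 and 147813 in pig and 293725, 239513 and 214241 in rat. By this unit ATP6 was the higher of the pair in all 6 libraries. ATP6 had 11.1 ± 0.154 times the counts of ATP8 in the pig libraries (SD, n = 3) and 10.4 ± 1.09 times in the rat libraries (SD, n = 3). ATP6 ranked between 6 and 9 by estimated count in pig and was second in every rat library, whereas ATP8 ranked between 219 and 269 in pig and between 97 and 188 in rat. The 12 member counts were exact whole numbers as deposited, to all decimals given, as were 18.4% of all pig and 55.1% of all rat counts of at least 100 on average.

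**Figure D1:**
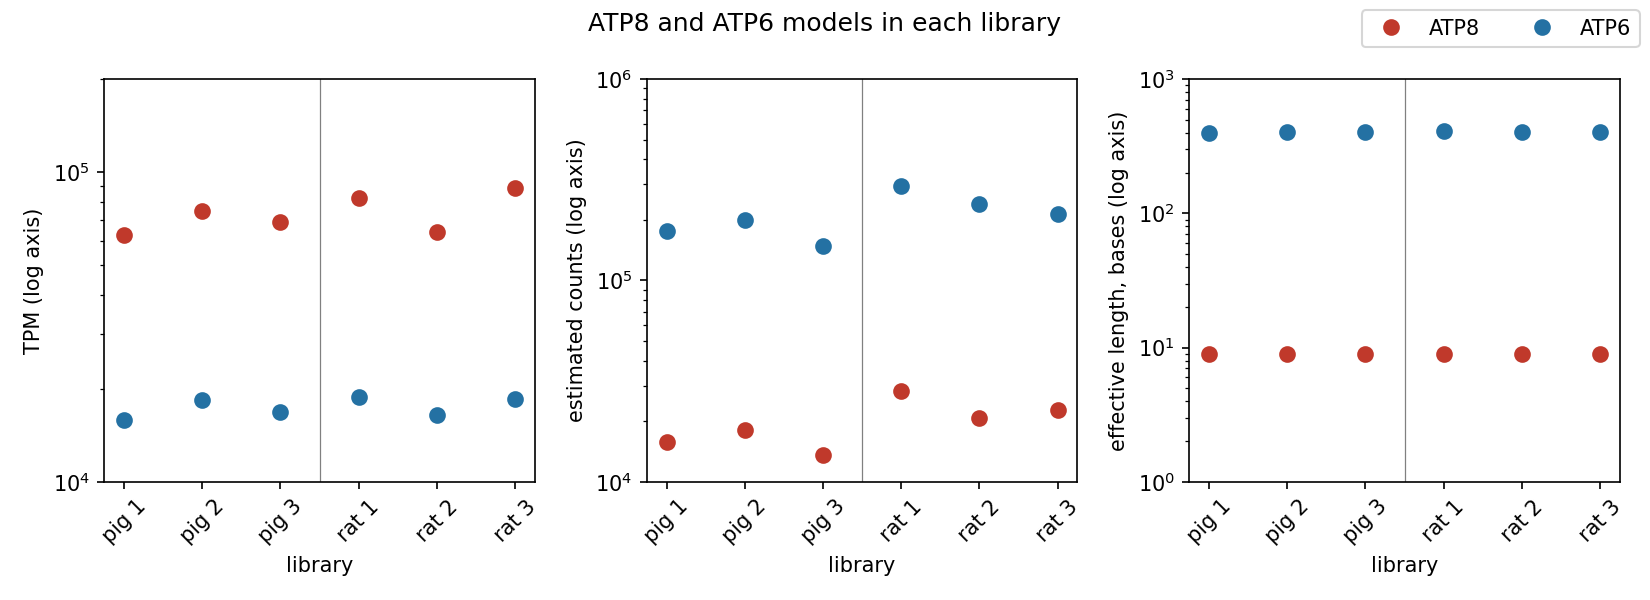
Values of ATP8 (red) and ATP6 (blue) in each library, as TPM, as estimated counts and as deposited effective length in bases, all on log axes. ATP8 lies above ATP6 in TPM in all 6 libraries and below it in estimated counts, and the effective length of ATP8 is 9 bases throughout against 400 to 409 for ATP6.

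The divisor separated the units. The deposited effective length of ATP8 was 9 bases in all 6 libraries. That of ATP6 was 400, 404 and 406 bases in pig libraries 1, 2 and 3 and 409, 406 and 408 bases in rat libraries 1, 2 and 3, which is 44.8 ± 0.336 times that of ATP8 in pig and 45.3 ± 0.177 times in rat (SD, n = 3 each). A single ATP8 read therefore added 2.90 to 5.12 TPM to a library, and a single ATP6 read added 0.0638 to 0.114 TPM. In the pig libraries ATP8 took 0.0418% to 0.0480% of the estimated counts and 6.27% to 7.47% of the TPM. In the rat libraries it took 0.0555% to 0.0802% of the estimated counts and 6.41% to 8.90% of the TPM.

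The effective length of ATP8 was that of any model of its length. All 12 pig and all 17 rat models of exactly the length of ATP8 had 9 bases, with or without reads. Models under 250 bases had an effective length within 1 base of their length minus the mean of a normal fragment length with mean 250 and SD 25 bases cut at the model length, in 100% of 2414 pig models and in at least 99.98% of 5897 rat models. For ATP8 that calculation gives 9.38 bases. The same mean and SD served for all 6 libraries. The fragment lengths of the libraries themselves were not examined here, so this mean and SD are not a measurement of them. The shortest model with an effective length that was not a whole number had 270 to 274 bases in pig and 229 bases in rat, so ATP8 was shorter than every model whose effective length carried a fraction.

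The effective length of ATP6, in contrast, differed between libraries and from other models of its length. Models as long as ATP6 but without reads had 430 bases, and ATP6 had 93.0% to 94.4% of that in pig and 94.4% to 95.2% in rat. Among models of 671 to 691 bases with at least 100 counts (26 to 28 per pig library and 36 to 40 per rat library), 1 model per library had a lower effective length relative to the cut fragment length than ATP6. The median of these models was 102% of the calculated length in pig and 98.7% in rat, against 93.6% and 94.6% for ATP6. With the 430 bases of unread models as the divisor of ATP6, the ATP8 to ATP6 ratio was 4.31 in pig and 4.61 in rat, close to the deposited 4.05 and 4.37.

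**Figure D2:**
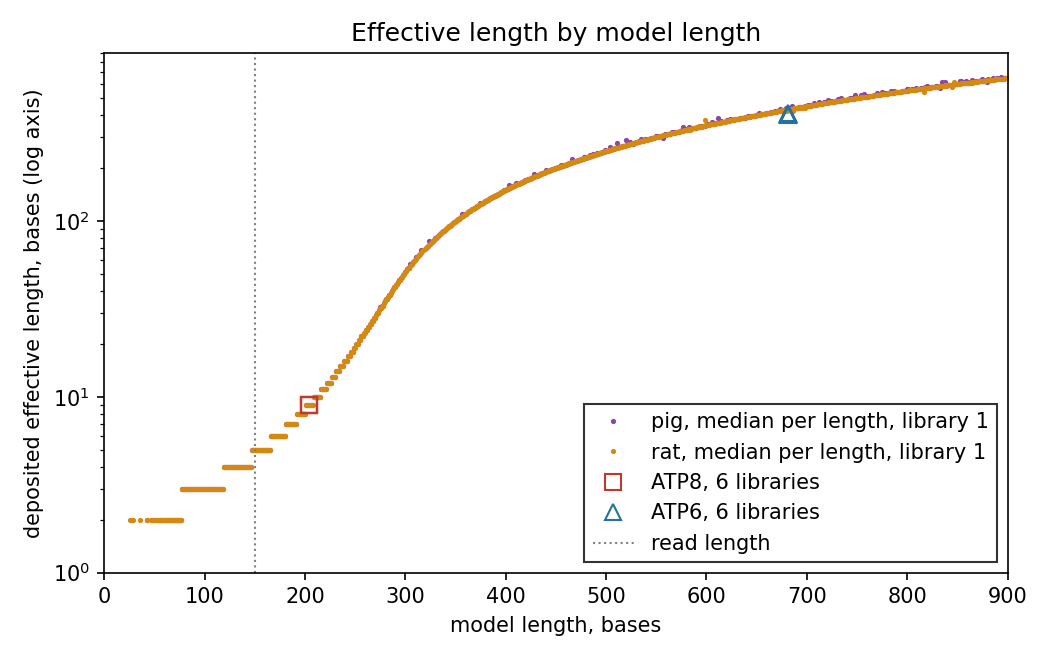
Deposited effective length (log axis) against model length for models up to 900 bases, with the median at each length in library 1 of pig and rat as points the rat points covering most pig points, and the members in all 6 libraries as open symbols. ATP8 lies on the low part of the curve with an effective length of 9 bases, and ATP6 lies slightly below the median of its length.

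Reads were then counted against plain features of the models. Per base of model length, ATP8 had 0.301 ± 0.00418 times the counts of ATP6 in the pig libraries and 0.322 ± 0.0334 times in the rat libraries (SD over 3 libraries each), the reverse of the order in TPM. A read of 150 bases has 55 positions at which it can start and still lie whole in ATP8, and 532 such positions in ATP6. These positions take each estimated count as 1 read of 150 bases, and would not apply if a count stood for a pair of reads. Those start positions were 6.11 times the effective length of ATP8 but 1.30 to 1.33 times that of ATP6. Per start position, ATP8 held 286, 327 and 246 counts in pig libraries 1, 2 and 3 beside 332, 374 and 278 for ATP6. In rat libraries 1, 2 and 3 ATP8 held 516, 376 and 414 counts per start position beside 552, 450 and 403 for ATP6. The pig ratio was 0.873 ± 0.0121 (SD, n = 3) and the rat ratio 0.933 ± 0.0968 (SD, n = 3), with ATP8 below ATP6 in all 3 pig libraries and in 2 of 3 rat libraries, at 1.03 in rat library 3.

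The read length after trimming is not given in the sources used here, and this ratio depended on it. Reads of 120 bases gave 0.597 for pig and 0.638 for rat, and reads of 100 bases gave 0.50 and 0.53. Models shorter than 150 bases, in which no untrimmed read can lie whole, still held 741 to 859 counts in pig and 1963 to 3353 in rat, so shorter or overhanging reads were counted. With length minus 250 bases, set to 1 base for ATP8, the ratio became 38.9 for pig and 41.6 for rat. Across the 8 divisors used, the mean ATP8 to ATP6 ratio of each species spanned 129-fold from the same counts. That span was set by the choice of divisors alone, with its upper end at the 1 base set for ATP8.

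**Figure D3:**
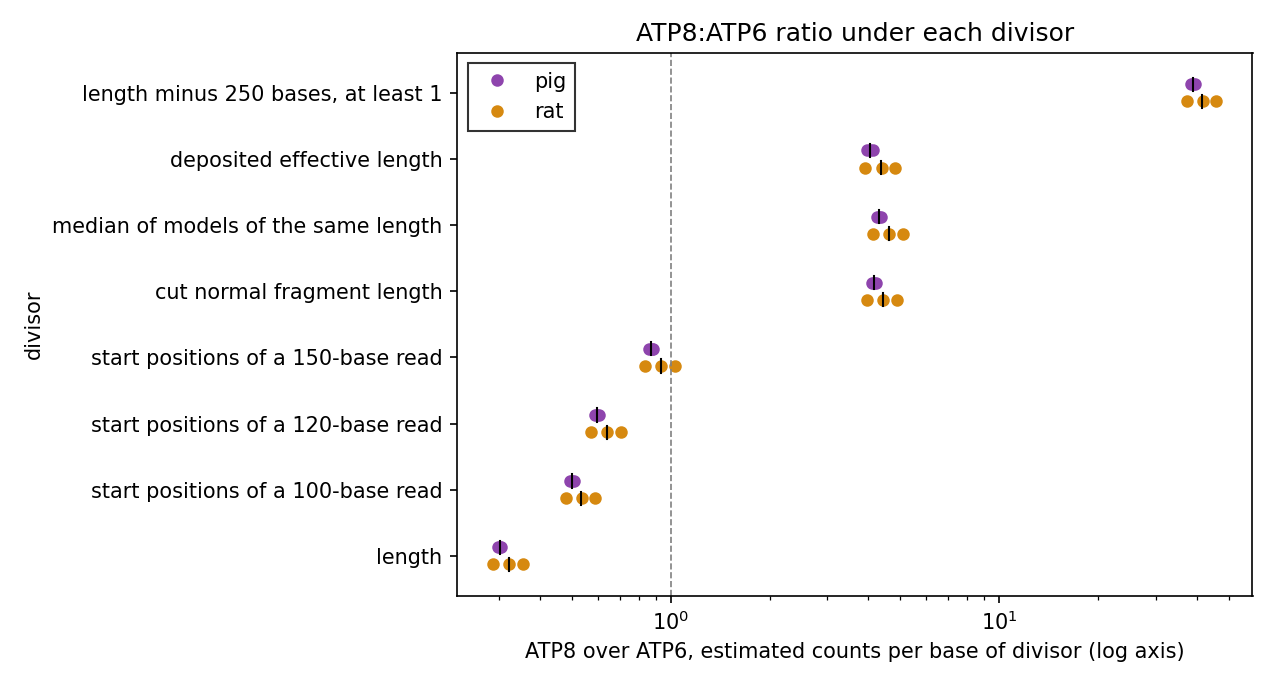
ATP8 over ATP6 (log axis) in each library under 8 divisors of the estimated counts, with pig and rat libraries as points, the mean of a species as a black bar and equality as a dashed line. The ratio is 38.9 in pig with length minus 250 bases, 4.05 with the deposited effective length, 0.873 with start positions of a 150-base read and 0.301 with the model length.

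The place of ATP8 among all transcripts followed the divisor. When all models of a library were rescaled by model length in place of effective length, ATP8 fell from rank 1 to ranks 15 to 21 in pig and 10 to 12 in rat, at 4521 ± 419 and 5947 ± 1047 on the TPM scale (SD, n = 3 each). ATP6 then ranked 3 in every pig library and 1 in every rat library, at 14997 ± 1301 and 18376 ± 1483 on the same scale. By start positions of a 150-base read, which leaves 60869 pig and 35403 rat models of at least 150 bases, ATP8 ranked 5 to 7 in pig and 1 or 2 in rat. ATP6 ranked 4 in each pig library and 1 or 2 in rat by the same measure. With the cut fragment length ATP8 ranked 1 in every library, and ATP6 ranked 3 to 6 in pig and 2 or 3 in rat. With length minus 250 bases ATP8 again ranked 1 in every library, and ATP6 ranked 6 to 9 in pig and 7 to 12 in rat.

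No other model within 10 bases of either length was read as often, and the members had been chosen by their high TPM. Among models of 194 to 214 bases (85 in pig and 208 in rat), ATP8 held 95.6% to 96.6% of the estimated counts in pig and 80.8% to 86.4% in rat. The next model held 168 to 186 counts in pig and 2385 to 3088 in rat. Among models of 671 to 691 bases (170 in pig and 264 in rat), ATP6 held 44.1% to 47.7% of the counts in pig and 51.9% to 53.4% in rat. The next model there held 102955 to 146966 counts in pig and 138390 to 190703 in rat.

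Pig and rat were compared by 4 measures, with an exact two-sided permutation test over the 20 arrangements of the 6 libraries, in which the smallest possible p is 0.1. Earlier results of these data on the same members were known, so these p-values are not independent evidence. The log2 ATP8 to ATP6 ratio differed, pig minus rat, by -0.11 in TPM and by -0.09 in estimated counts. The exact permutation p was 0.4 for both, with an adjusted p of 0.4 over 4 measures. In this ratio the pig libraries lay inside the range of the rat libraries. Rat library 2 alone lay below the pig libraries: without it the differences were -0.19 and -0.17 (exact permutation p = 0.1 for both, the smallest possible), and without rat library 3 they were -0.03 and -0.02 (exact permutation p = 0.8 for both). The share of ATP6 in the estimated counts was 0.486% ± 0.0385 in pig (SD, n = 3) against 0.703% ± 0.0565 in rat (SD, n = 3), with an exact permutation p of 0.1 and an adjusted p of 0.2. The share of ATP8 was 0.0439% ± 0.00351 in pig (SD, n = 3) against 0.0682% ± 0.0124 in rat (SD, n = 3), with the same exact p and adjusted p. Every rat library lay above every pig library in both shares, and neither difference could reach 0.05 in this design. In TPM the libraries of the species overlapped for ATP6, whose mean share was 1.70% in pig against 1.79% in rat, with an exact permutation p of 0.5, and for ATP8, with an exact permutation p of 0.3. The species differ in their transcript annotation and its size. In bulk RNA, a difference in ATP8 and ATP6 transcripts per cell and a difference in the make-up of the cells cannot be told apart.

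Within each species the shares of counts of ATP8 and ATP6 moved in the same direction between most libraries, and in rat ATP8 moved further than ATP6. The share of counts of ATP8, as log2 relative to its mean, was -0.07, 0.13 and -0.06 in pig libraries 1, 2 and 3, and that of ATP6 was -0.05, 0.13 and -0.08. In rat libraries 1, 2 and 3 ATP8 stood at 0.03, -0.28 and 0.25, and ATP6 at 0.02, -0.13 and 0.10. Library 2 was thus the highest of the pig libraries for both genes, and rat library 3 the highest and rat library 2 the lowest for both genes, with a range in rat of 0.53 for ATP8 and 0.23 for ATP6. The rat libraries also differed in depth, and rat library 3 had the fewest estimated counts. The part of depth in this spread was not tested.

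ATP8 made up 8.17%, 8.29% and 8.38% of the counts of the pair in pig libraries 1, 2 and 3, with 95% Wilson intervals of 8.05% to 8.29%, 8.18% to 8.41% and 8.24% to 8.51%. In rat libraries 1, 2 and 3 it made up 8.81% (8.71% to 8.91%), 7.95% (7.85% to 8.06%) and 9.62% (9.50% to 9.73%). The intervals of the 3 pig libraries overlapped, and those of the rat libraries were apart from each other. These intervals cover counting error only. The spread of the ATP8 share of a library, at 8.01% of its mean in pig and 18.2% in rat, was 9.99 and 27.9 times the counting error of ATP8.

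**Figure D4:**
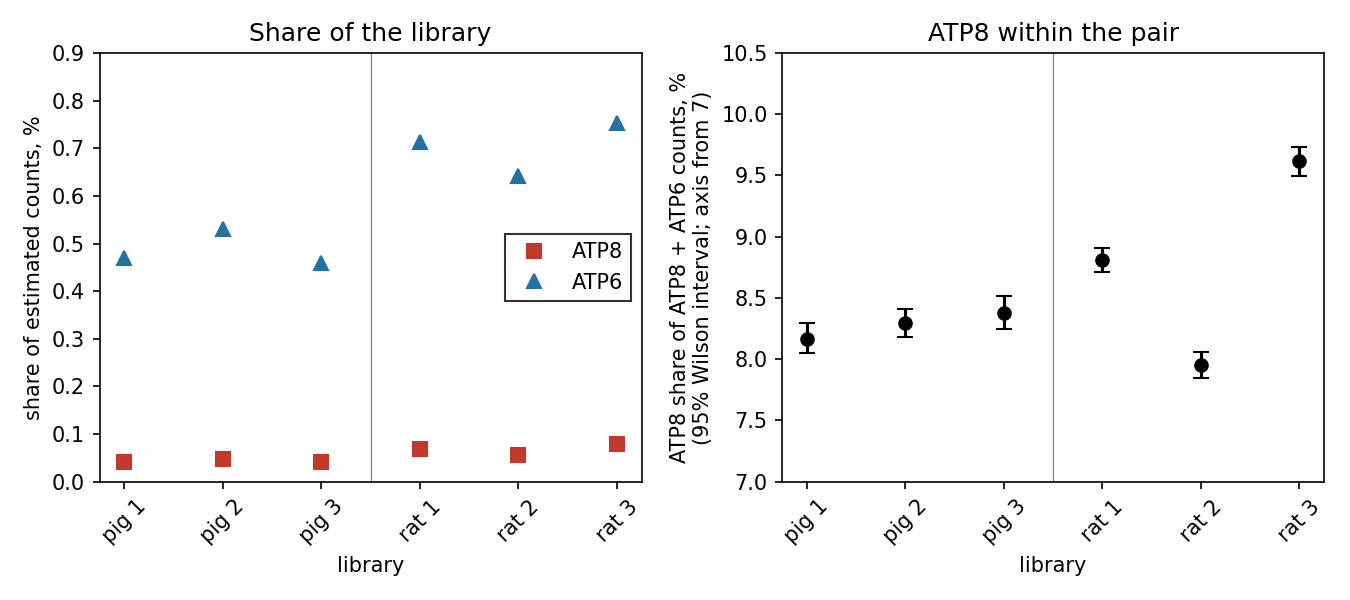
Left, share of the estimated counts held by ATP6 (triangles) and ATP8 (squares) in each library, in percent. Right, ATP8 as a percentage of the ATP8 and ATP6 counts with 95% Wilson intervals on an axis that starts at 7%, where pig libraries lie at 8.17% to 8.38% and rat libraries at 7.95% to 9.62%.

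Likeness of pattern was measured as the distance between centred log2 shares over the 3 libraries of a species, among transcripts with a mean count of at least 100 and reads in every library. In pig, ATP6 was the transcript of rank 69 in likeness to ATP8 among 17810, and ATP8 had rank 70 in likeness to ATP6. In rat, ATP6 had rank 1182 in likeness to ATP8 among 13880, and ATP8 had rank 3967 in likeness to ATP6. The distance between ATP8 and ATP6 is the same in both directions, 0.0283 in pig and 0.213 in rat. The ranks within a species differ only by how many other transcripts lie nearer to each gene. The nearest transcripts were ENSSSCT00000041950.2 to ATP8 and ENSSSCT00000045156.2 to ATP6 in pig, and ENSRNOT00000027561.6 to ATP8 and ENSRNOT00000082605.1 to ATP6 in rat, none of them paired with a gene name here. With only 3 libraries per species, these ranks are descriptions.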

How the data were processed

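Per the submitters' processing notes, the authors used Salmon (version 1) to assign reads to transcripts. The series' design text names the models of Ensembl 104. The deposited estimated counts and TPM values are used as given, 1 library per file, with the length and effective length per the file headers. The notes also name fastp, Trim Galore and other tools without a role, and list rn6 for both species. Salmon's settings and the pig build are not stated in these sources.

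The members, lists and tests were chosen with earlier results of these data known. Named transcripts are the members and, for each, the nearest by likeness. Tables were handled in Python 3.11.15 with pandas 2.3.3 and SciPy 1.17.1. TPM recomputed from counts and effective lengths differed from the deposited values by at most 0.0209. Tests were exact permutation tests with Benjamini-Hochberg adjustment, tried on short sets of numbers with known answers. The ranking by likeness was tried on simulated counts. No comparison across all transcripts was made. Alternatives were other divisors, pseudocounts, library totals and filters, libraries left out and a replicate block. The nuclear ATP synthase list and cell type markers have no result. Start positions were the model length minus the read length plus 1. Protein and transcript sequences were not used here.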

Additional observations from a re-analysis of the deposited data

How the results depend on the processing

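The order of ATP8 and ATP6 within a library depended on the divisor, by its construction, since the counts were the same. The log2 ratio of TPM was 2.02 in pig and 2.12 in rat. It reversed to -1.73 in pig and -1.64 in rat with model length, to -0.20 and -0.11 with start positions of a 150-base read, and, in alternatives chosen after seeing the data, to -0.74 and -0.65 with 120-base reads and to -1.0 and -0.91 with 100-base reads. It rose to 5.28 and 5.37 with length minus 250 bases. In pig it was 2.05 with the cut fragment length and 2.11 with the median of models of the same length, both further from 2.02 than the SD. Leaving out 1 library gave 2.0 to 2.03 for pig and 2.05 to 2.20 for rat, and a log2 ratio of counts of -3.48 to -3.46 and -3.45 to -3.30. The mean effective length of ATP6 was then 402 to 405 bases for pig and 407 to 408 for rat, and that of ATP8 stayed at 9.

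The 4 differences between the species kept their sign under every alternative run. For the TPM ratio, the other divisors were equal in pig and rat and cancelled in the difference. They all gave the count ratio difference of -0.09 again, so the sign kept under them was fixed by construction. With 1 library left out, pig minus rat for the log2 TPM ratio was lowest without rat library 2, at -0.19, and nearest to 0 without rat library 3, at -0.03. It ran from -0.17 to -0.02 for the log2 count ratio, from -0.247 to -0.191 percentage points for the ATP6 share and from -0.0307 to -0.0183 for the ATP8 share. A replicate block compared libraries of the same number, but numbers do not link the species and no transcript is quantified in both, so pairing could not be checked. The block leaves the differences at -0.11, -0.09, -0.217 and -0.0243 by construction, since the mean of paired differences equals the difference of means. Its exact sign-flip p was 0.5 for both ratios and 0.25, the smallest that 3 pairs allow, for both shares. The counting error of ATP8 was smaller than the spread between libraries in both species, and 3 libraries per species limit the tests.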
